A study of Homo sapiens with 30 samples.

Results

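The genes described here are 28 genes of cholesterol synthesis and its control by the sterol regulatory element binding proteins (SREBPs), measured across 5 doses of an androgen in LNCaP cells. The 28 symbols were fixed as a list and looked up by Ensembl ID without version in the deposited count table, and all 28 were found among its 37843 genes. By role they are 8 genes of the mevalonate and isoprenoid diphosphate steps, 3 of the squalene and lanosterol steps, 9 of the steps after lanosterol, 7 SREBP factors and regulators, and 1 sterol transfer protein. All 28 passed the filter on low counts, and the fewest counts of any of them in a library was 381, for CYP51A1.

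LNCaP is an epithelial line that responds to androgens and was grown out of a prostate cancer metastasis in a lymph node, and R1881 is a synthetic androgen. Cells were kept in medium with charcoal-stripped serum, which is low in steroids, and were then given vehicle or R1881 at 0.03, 0.06, 0.1 or 10 nM for 24 h. Polyadenylated RNA was sequenced from 3 libraries in each of the 5 groups, numbered 2, 3 and 4 by the labels. The study set low doses of the androgen against a high dose to find the genes each one changes. All groups share the line, the stripped serum and the time, and no transgene or deletion is named. The labels do not say whether the 3 libraries of a group came from separate cultures, so p-values measure only the spread between these libraries, which may be technical.

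Total counts per library ran from 30666460 to 61199483. Levels are given as CPM, counts over library sizes brought to one scale. Differences are log2 changes with standard errors (SE) from edgeR's quasi-likelihood test, and "called" means a Benjamini-Hochberg adjusted p under 0.05 over the 18403 genes tested. The cells responded to the androgen: KLK3, which encodes prostate-specific antigen, rose from 102 ± 7.64 CPM in vehicle to 3850 ± 79.6 CPM at 10 nM (SD, n = 3), FKBP5 rose from 58.0 to 2450 CPM, and TMPRSS2 reached 1330 CPM from 66.4 CPM. The 7 luminal markers summed to 4310 to 4440 CPM per library in vehicle and to 12100 to 12300 CPM at 10 nM. The 3 basal markers in the table summed to at most 0.914 CPM in any library. Summed fibroblast markers, mostly COL1A1, ran from 28.3 to 39.7 CPM in vehicle and from 16.4 to 20 CPM at 10 nM. Summed leukocyte and endothelial markers, mostly VWF, ran from 16.7 to 20.2 CPM in vehicle and from 5.24 to 8.04 CPM at 10 nM, where PTPRC, CD3E, PECAM1 and CDH5 were at 0 counts. Neuroendocrine markers summed to 1.97 to 2.32 CPM in vehicle and 3.33 to 3.94 CPM at 10 nM. Mitochondrially encoded genes took 9.31% to 10.7% of counts in the libraries numbered 3 and 6.14% to 7.69% in the others. The part of these marker and mitochondrial differences in the results was not tested.

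Cholesterol is built from acetyl-CoA through mevalonate, isoprenoid diphosphates, squalene and lanosterol, and lanosterol is then trimmed and reduced in the endoplasmic reticulum. SREBP2, encoded by SREBF2, is the main transcriptional activator of the pathway, while SREBF1 encodes the forms best known for fatty acid synthesis. When sterols are scarce, SCAP escorts the SREBP precursors to the Golgi, where the proteases encoded by MBTPS1 and MBTPS2 release the active factor. When sterols are plentiful, the INSIG proteins hold SCAP in the endoplasmic reticulum. In prostate cells androgens are known to raise lipid synthesis and SCAP expression.

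The 6 short promoter stretches below are shown because they belong to the genes that moved in opposite directions and to the SREBP2 gene itself: the pair INSIG1 and INSIG2, the pair LBR and TM7SF2, which encode enzymes for the same reduction step, and SREBF2. The stretches come from RefSeq windows on GRCh38.p14 that run from 250 bases before to 50 bases after each annotated start, given 5′ to 3′ on the gene's strand. Capitals mark matches, on either strand, to the sterol regulatory element TCACNCCAC, the SREBP E-box TCACNTGA, the NF-Y box CCAAT and the GC box GGGCGG.
SREBF2 (plus strand, chr22:41832959-41833078): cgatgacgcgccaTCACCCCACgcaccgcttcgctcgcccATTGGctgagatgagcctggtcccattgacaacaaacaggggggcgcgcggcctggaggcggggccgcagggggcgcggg
INSIG1 (plus strand, chr7:155297656-155297775): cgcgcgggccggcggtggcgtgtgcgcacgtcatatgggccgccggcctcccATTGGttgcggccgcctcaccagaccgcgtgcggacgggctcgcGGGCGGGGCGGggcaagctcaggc
INSIG1 E-box (plus strand, chr7:155297811-155297840): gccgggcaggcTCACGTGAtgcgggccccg
INSIG2 (plus strand, chr2:118088332-118088451): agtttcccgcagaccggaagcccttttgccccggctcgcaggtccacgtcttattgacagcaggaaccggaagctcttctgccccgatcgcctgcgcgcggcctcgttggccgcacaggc
TM7SF2 (plus strand, chr11:65111725-65111844): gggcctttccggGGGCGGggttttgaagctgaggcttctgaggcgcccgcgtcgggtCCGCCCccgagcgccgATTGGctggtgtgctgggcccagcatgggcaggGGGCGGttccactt
LBR (minus strand, chr1:225428926-225429045): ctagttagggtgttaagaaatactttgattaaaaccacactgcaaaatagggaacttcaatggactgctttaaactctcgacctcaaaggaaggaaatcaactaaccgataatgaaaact

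Windows were found for 25 of the 28 genes, 33 windows in all because some genes have several starts, and none was found for ACAT2, FDFT1 and SQLE. The letters TCACNCCAC were present in the SREBF2 window, 133 bases before the start, and in no other window of the 25 genes, while 1.13% of all 35116 windows held them. The letters TCACNTGA were present in the EBP window and in the INSIG1 window, where the match reads the same on both strands and lies 56 bases before the RefSeq start but inside the gene as GENCODE 29 draws it. In all windows 3.79% held them. The NF-Y box was in 57.6% of the 33 windows, in 17 genes, against 34.6% of all windows, and the GC box in 81.8%, in 21 genes, against 45% of all windows. The full androgen response element, an inverted repeat of AGAACA with a 3-base spacer, was in none of the 33 windows and in 0.00285% of all windows, and the single repeat AGAACA was in that of PMVK alone, against 14.8% of all windows. The shown INSIG2 and LBR stretches hold none of the first 4 motifs, and the LBR stretch is 35.8% G and C where the others are 65.8% to 80% G and C. INSIG2 does have GC boxes outside its shown stretch. One lies 7 bases before the start in its window 1, and one lies 86 bases before the start in its window 2. These matches are descriptions of letters in these windows and are neither binding sites nor causes.

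At 10 nM, 25 of the 28 genes rose against vehicle and 3 fell, so that all 28 were called, and LBR was the one whose direction turned when library totals replaced TMM scaling. Among all genes tested, 29.3% were called higher and 28.3% lower in that comparison. The median log2 change was 0.66 over the 28 genes and -0.013 over all genes tested. SCAP, INSIG1, HMGCS1, IDI1 and FDFT1 were at least 2-fold higher, INSIG2 was at least 2-fold lower, and TM7SF2 and HSD17B7 were the other genes that fell. In bulk RNA, a change in the number of cells of one kind and a change in RNA per cell cannot be told apart. The summed level of the 28 genes was 2560 ± 79.6 CPM in vehicle, 2640 ± 97.4 CPM at 0.03 nM, 2910 ± 68.3 CPM at 0.06 nM, 3110 ± 10.3 CPM at 0.1 nM and 4110 ± 60.7 CPM at 10 nM (SD, n = 3). With library totals in place of TMM scaling the median of all genes at 10 nM shifted to -0.223, the calls over all genes went from 5399 higher and 5209 lower to 3069 higher and 7987 lower, and 20 of the 28 genes were called higher and 3 lower.

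Fewer of these genes were called at the lower doses, with smaller median changes, though LBR changed more at 0.06 and 0.1 nM than at 10 nM and STARD4 fell at the low doses and rose at 10 nM. At 0.1 nM, 20 genes rose and 4 fell, where 21.5% of all genes were called higher and 20.6% lower, and the median log2 change of the 28 genes was 0.37 against -0.026 for all genes. At 0.06 nM, 16 rose and 4 fell, where 16.9% of all genes were called higher and 14.3% lower, and the medians were 0.29 and -0.014. At 0.03 nM, EBP rose and INSIG2 and STARD4 fell, where 5.47% of all genes were called higher and 3.16% lower, and the medians were 0.10 and 0.002. When replicate number entered the 0.03 nM fit as a block, 9 genes were called higher (EBP, ACAT2, MVK, IDI1, FDPS, FDFT1, SQLE, LBR and INSIG1) and INSIG2 and STARD4 lower, where that fit called 9.93% of all genes higher and 7.43% lower. The 4 comparisons share the vehicle libraries.

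**Figure D1:**
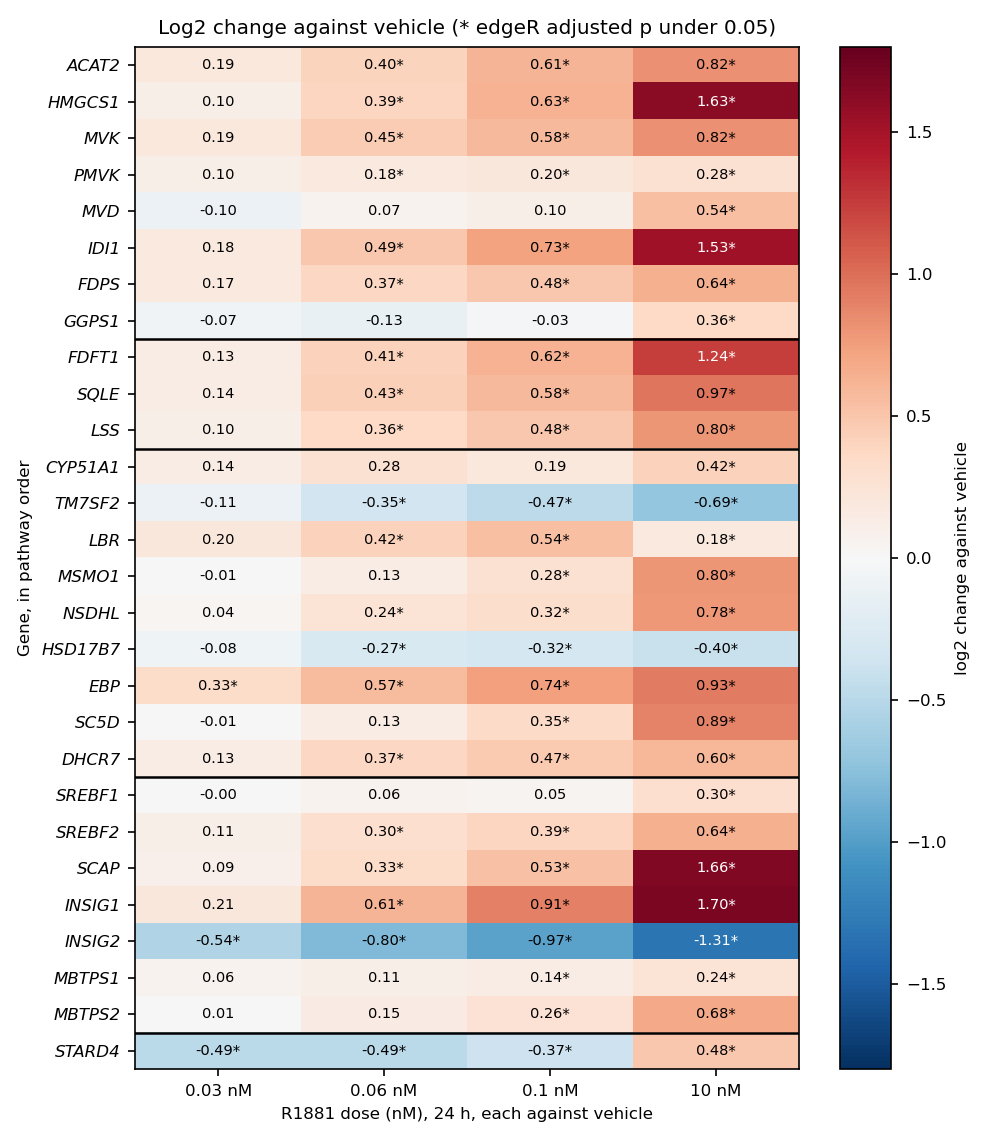
Log2 change of each of the 28 genes (rows, in pathway order, with lines between the role groups) against vehicle at 0.03, 0.06, 0.1 and 10 nM R1881 (columns), from edgeR over 15 libraries, with colour for the log2 change and a star for an adjusted p under 0.05. All 28 genes carry a star at 10 nM, where INSIG2, TM7SF2 and HSD17B7 are the genes below 0 and LBR is one that falls to -0.03 with library totals.

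The mevalonate and isoprenoid steps turn acetyl-CoA into the building blocks of sterols and prenyl groups. All 8 of their genes rose at 10 nM, 6 rose at 0.06 and 0.1 nM and none was called at 0.03 nM. Among all genes tested, 29.3% were called higher at 10 nM, 21.5% at 0.1 nM, 16.9% at 0.06 nM and 5.47% at 0.03 nM. With the replicate block ACAT2, MVK, IDI1 and FDPS were called higher at 0.03 nM, where that fit called 9.93% of all genes higher. HMGCS1, the cytosolic enzyme that makes HMG-CoA (ENSG00000112972.15, chromosome 5, 43289395 to 43313512, minus strand, GRCh38), was measured at 89.6, 87.2 and 86.7 CPM in vehicle, 96.3, 92.1 and 93.5 CPM at 0.03 nM, 116, 114 and 115 CPM at 0.06 nM, 131, 140 and 137 CPM at 0.1 nM, and 261, 269 and 288 CPM at 10 nM. No library of one dose overlapped those of the next, and the widest gap lay between 0.1 and 10 nM. Its log2 change was 1.63 ± 0.047 at 10 nM (adjusted p = 6.54e-15), or 3.11-fold, against 0.63 ± 0.047 at 0.1 nM and 0.39 ± 0.047 at 0.06 nM.

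IDI1, the isomerase that interconverts the 5-carbon isoprenoid units, followed the same order (chromosome 10, 1039152 to 1049170, minus strand). It stood at 60.6, 59.8 and 60.2 CPM in vehicle, 67.7, 65.3 and 70.9 CPM at 0.03 nM, 82.7, 85.5 and 85.2 CPM at 0.06 nM, 95.9, 104 and 98.9 CPM at 0.1 nM, and 155, 190 and 176 CPM at 10 nM. The 10 nM libraries spread more than those of any other group and were all above the rest. The log2 change at 10 nM was 1.53 ± 0.062 (adjusted p = 5.33e-13), a 2.89-fold rise.

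ACAT2, the acetyl-CoA thiolase of the first step, and MVK, mevalonate kinase, rose by the same amount at 10 nM, a log2 change of 0.82 ± 0.064 and 0.82 ± 0.057. ACAT2 went from 46.8 ± 4.96 to 83.0 ± 1.99 CPM and MVK from 22.5 ± 1.27 to 39.8 ± 1.54 CPM. FDPS, which makes farnesyl diphosphate, rose from 87.3 ± 6.64 to 136 ± 3.93 CPM, with a log2 change of 0.64 ± 0.054 (adjusted p = 1.06e-08). These 3 genes had reached 74.2%, 70.7% and 74.1% of their 10 nM log2 change at 0.1 nM, where HMGCS1 and IDI1 had reached 38.6% and 47.4%. PMVK, phosphomevalonate kinase, rose least, with a log2 change of 0.28 ± 0.048 at 10 nM (adjusted p = 6.97e-05), and with library totals the value was 0.07 (adjusted p = 0.287).

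MVD and GGPS1 behaved differently from the other 6 in that no dose below 10 nM was called. MVD, the decarboxylase that makes isopentenyl diphosphate, was at 26.3, 26.6 and 26.4 CPM in vehicle, 27.9, 29.5 and 27.7 CPM at 0.1 nM, and 36.2, 38.0 and 41.1 CPM at 10 nM. GGPS1 makes geranylgeranyl diphosphate for protein prenylation and lies on the side branch of the pathway. It was at 21.2, 21.4 and 21.9 CPM in vehicle and 20.2, 20.6 and 20.8 CPM at 0.03 nM. At 0.06 nM it was at 18.6, 20.3 and 20 CPM, and at 10 nM at 26.3, 28.7 and 27.7 CPM. The GGPS1 libraries at 0.03 and 0.06 nM were all below those of vehicle. With the replicate block GGPS1 was called lower at 0.06 nM (log2 change -0.13, adjusted p = 0.0463). In both genes the 10 nM libraries were above all others. The log2 changes of 10 nM against 0.1 nM were 0.44 ± 0.056 for MVD (adjusted p = 5.59e-06) and 0.38 ± 0.058 for GGPS1 (adjusted p = 3.78e-05).

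The 3 genes that take farnesyl diphosphate to lanosterol rose together, each called at 0.06, 0.1 and 10 nM. FDFT1, squalene synthase and the first enzyme committed to sterols, was measured at 157, 151 and 147 CPM in vehicle, 163, 175 and 162 CPM at 0.03 nM, 206, 210 and 193 CPM at 0.06 nM, 235, 233 and 233 CPM at 0.1 nM, and 355, 358 and 368 CPM at 10 nM. Every group was separate from its neighbours in dose order. Its log2 change was 1.24 ± 0.048 at 10 nM (adjusted p = 3.00e-13), a 2.37-fold rise. SQLE, squalene epoxidase, went from 37.2 ± 1.03 to 72.6 ± 1.98 CPM, a log2 change of 0.97 ± 0.046 (adjusted p = 4.25e-12), or 1.95-fold. LSS, lanosterol synthase, went from 99.2 ± 8.11 to 173 ± 12.1 CPM, a log2 change of 0.80 ± 0.090 (adjusted p = 5.63e-07). In each of the 5 groups the library numbered 3 was the highest for LSS, at 107, 120, 139, 153 and 187 CPM in dose order. Those libraries also had the highest mitochondrial shares, and the part of that in the LSS spread was not tested.

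Of the 9 genes of the steps after lanosterol, 7 rose and 2 fell at 10 nM (LBR among the 7 turned with library totals), 6 rose and 2 fell at 0.1 nM, and 4 rose and 2 fell at 0.06 nM. Over all genes tested, 29.3% were called higher and 28.3% lower at 10 nM. The shares were 21.5% and 20.6% at 0.1 nM, and 16.9% and 14.3% at 0.06 nM. TM7SF2 and LBR encode the enzymes that can both reduce the C14 double bond of sterol intermediates, and LBR is also the lamin B receptor of the inner nuclear membrane. TM7SF2 (ENSG00000149809.17, chromosome 11, 65111845 to 65116384, plus strand) fell with dose, from 310, 303 and 297 CPM in vehicle to 285, 291 and 269 CPM at 0.03 nM, 226, 252 and 238 CPM at 0.06 nM, 229, 211 and 215 CPM at 0.1 nM, and 188, 200 and 176 CPM at 10 nM. The libraries at 0.06 and 0.1 nM overlapped, and the other neighbouring doses did not. The log2 change was -0.69 ± 0.057 at 10 nM (adjusted p = 8.67e-09), 1.61-fold lower. VPS51, which overlaps TM7SF2 on the same strand, was not called at 10 nM, at 144 ± 7.85 CPM in vehicle and 139 ± 3.97 CPM at 10 nM.

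LBR (chromosome 1, 225401502 to 225428925, minus strand) rose at the low doses and was lower again at the high one. It was measured at 54.5, 48.7 and 50.2 CPM in vehicle, 61.6, 53.0 and 61.6 CPM at 0.03 nM, 73.7, 59.3 and 71.6 CPM at 0.06 nM, 74.5, 72.9 and 76.4 CPM at 0.1 nM, and 57.6, 58.3 and 57.7 CPM at 10 nM. All 0.1 nM libraries lay above all 10 nM libraries, and all 10 nM libraries lay above all vehicle libraries. The log2 change was 0.54 ± 0.074 at 0.1 nM (adjusted p = 1.18e-05), and 10 nM against 0.1 nM gave -0.37 ± 0.074 (adjusted p = 6.20e-04). The difference of 10 nM from vehicle was 0.18 ± 0.074 (adjusted p = 0.0479). That value turned to -0.03 with library totals and lost its call under the stricter low-count filter (adjusted p = 0.128) and without the 5 libraries numbered 3 (0.0512). Leaving out vehicle replicate 3 (0.189), vehicle replicate 4 (0.119) or any of 10 nM replicates 2, 3 and 4 (0.105, 0.119 and 0.108) also ended it.

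The ratio of LBR to TM7SF2 counts within a library, which needs no scaling between libraries, was 0.176, 0.161 and 0.169 in vehicle and 0.325, 0.345 and 0.356 at 0.1 nM. At 10 nM it was 0.306, 0.292 and 0.327. All treated libraries were above all vehicle libraries. The exact two-sided permutation test gave p = 0.1 at each dose, the smallest that 3 libraries against 3 allow.

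HSD17B7, which works in the demethylation of the sterol at C4 and can also reduce estrone, was the other gene of this group that fell. Its level was 17.9, 18.8 and 19.5 CPM in vehicle, 16.2, 13.8 and 15.2 CPM at 0.1 nM, and 14.6, 13.6 and 14.4 CPM at 10 nM. The log2 change was -0.40 ± 0.073 at 10 nM (adjusted p = 1.37e-04), and the 10 nM and 0.1 nM libraries overlapped. Its partners in C4 demethylation went the other way. MSMO1, the methyl oxidase, rose from 62.7 ± 1.27 to 109 ± 8.46 CPM and NSDHL, the decarboxylating dehydrogenase, from 23.8 ± 1.30 to 41.1 ± 1.48 CPM, with log2 changes of 0.80 ± 0.057 and 0.78 ± 0.057.

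EBP, the isomerase that moves the double bond of the sterol ring, rose at every dose. It was measured at 13.8, 12.2 and 11.3 CPM in vehicle, 14.1, 16.1 and 16.6 CPM at 0.03 nM, 20.8, 17.9 and 16.6 CPM at 0.06 nM, 20.6, 19.6 and 21.8 CPM at 0.1 nM, and 24.7, 22.5 and 23.7 CPM at 10 nM. All treated libraries were above all vehicle libraries. The log2 change was 0.33 ± 0.093 at 0.03 nM (adjusted p = 0.0338) and 0.93 ± 0.092 at 10 nM (adjusted p = 1.01e-07). The call at 0.03 nM was lost with library totals (adjusted p = 0.0656), with only the libraries compared (0.0829), without the 5 libraries numbered 3 (0.114) and without vehicle replicate 3, vehicle replicate 4, 0.03 nM replicate 3 or 0.03 nM replicate 4 (0.103, 0.157, 0.0922 and 0.142). With the replicate block its adjusted p stayed below the threshold.

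SC5D, the desaturase before the final reductions, went from 93.3 ± 4.62 to 173 ± 16.4 CPM at 10 nM, a log2 change of 0.89 ± 0.072 (adjusted p = 7.79e-09), and it was first called at 0.1 nM. DHCR7, which makes cholesterol from 7-dehydrocholesterol, went from 113 ± 9.51 to 171 ± 4.10 CPM, a log2 change of 0.60 ± 0.075. It had reached 79.1% of that change at 0.1 nM, where SC5D had reached 39.8%. CYP51A1, the lanosterol demethylase, had the lowest count of the 28 genes. It was at 11.2, 12.9 and 8.79 CPM in vehicle and 14.7, 14.2 and 15.3 CPM at 10 nM, a log2 change of 0.42 ± 0.11 (adjusted p = 0.00247). With library totals that value was 0.21 (adjusted p = 0.0893).

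Among the 7 SREBP factors and regulators, 6 rose and 1 fell at 10 nM, where 29.3% of all genes were called higher and 28.3% lower. SREBF2 (chromosome 22, 41833079 to 41907308, plus strand) rose from 287, 281 and 273 CPM in vehicle to 303, 324 and 282 CPM at 0.03 nM, 341, 348 and 350 CPM at 0.06 nM, 363, 362 and 375 CPM at 0.1 nM, and 429, 425 and 454 CPM at 10 nM. From 0.06 nM upward each dose lay above the one before it. The log2 change at 10 nM was 0.64 ± 0.052 (adjusted p = 7.85e-09). SREBF1 was measured at 506, 467 and 461 CPM in vehicle, 510, 488 and 491 CPM at 0.1 nM, and 615, 552 and 604 CPM at 10 nM. It was called only at 10 nM, with a log2 change of 0.30 ± 0.062 (adjusted p = 3.88e-04) that was 0.10 with library totals (adjusted p = 0.205). The ratio of SREBF1 to SREBF2 counts within a library went from 1.70 ± 0.054 in vehicle to 1.35 ± 0.0475 at 0.1 nM and 1.35 ± 0.071 at 10 nM (SD, n = 3). All libraries of both doses were below all vehicle libraries (exact two-sided permutation p = 0.1, the smallest possible).

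SCAP, the escort of the SREBP precursors (ENSG00000114650.20, chromosome 3, 47413694 to 47477126, minus strand), was measured at 101, 99.7 and 101 CPM in vehicle, 109, 112 and 101 CPM at 0.03 nM, 131, 129 and 120 CPM at 0.06 nM, 149, 144 and 143 CPM at 0.1 nM, and 327, 296 and 333 CPM at 10 nM. The 10 nM libraries were all at or above 296 CPM, and no other library was above 149 CPM. Its log2 change was 1.66 ± 0.056 at 10 nM (adjusted p = 4.38e-14), 3.16-fold, of which 31.8% had been reached at 0.1 nM. The step from 0.1 to 10 nM, 1.13 ± 0.055 on the log2 scale (adjusted p = 4.21e-11), was the largest of the 28 genes in that comparison.

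INSIG1 (ENSG00000186480.13, chromosome 7, 155297776 to 155310235, plus strand) and INSIG2 (ENSG00000125629.15, chromosome 2, 118088452 to 118110997, plus strand) encode the pair of proteins that retain SCAP, and their levels moved in opposite directions. INSIG1 was measured at 78.6, 72.2 and 74.5 CPM in vehicle, 82.7, 90.2 and 87.7 CPM at 0.03 nM, 113, 123 and 109 CPM at 0.06 nM, 128, 149 and 144 CPM at 0.1 nM, and 224, 253 and 253 CPM at 10 nM. INSIG2 was measured at 48.1, 45.2 and 41.9 CPM in vehicle, 32.7, 30.2 and 30.4 CPM at 0.03 nM, 25.8, 26.8 and 24.8 CPM at 0.06 nM, 22.5, 23.5 and 23.2 CPM at 0.1 nM, and 17.2, 19.7 and 17.5 CPM at 10 nM. In both genes no group overlapped its neighbour, upward for INSIG1 and downward for INSIG2.

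At 10 nM the log2 change was 1.70 ± 0.068 for INSIG1 (adjusted p = 4.88e-13), 3.24-fold higher, and -1.31 ± 0.066 for INSIG2 (adjusted p = 1.04e-11), 2.48-fold lower. INSIG2 had the smallest p of the 28 genes at 0.03 nM, with a log2 change of -0.54 ± 0.064 (adjusted p = 3.62e-05), while INSIG1 was at 0.21 ± 0.067 there (adjusted p = 0.0637). INSIG2 had reached 40.8% of its 10 nM change at 0.03 nM and 73.8% at 0.1 nM, and INSIG1 12.4% and 53.3%. Counts of INSIG1 per count of INSIG2 within a library were 1.63, 1.60 and 1.78 in vehicle, 2.53, 2.99 and 2.89 at 0.03 nM, 4.39, 4.59 and 4.38 at 0.06 nM, 5.71, 6.36 and 6.22 at 0.1 nM, and 13.0, 12.8 and 14.5 at 10 nM. The ratio was separate at every dose and 8.05-fold higher at 10 nM than in vehicle (exact two-sided permutation p = 0.1, the smallest possible). Counts of SCAP per count of INSIG1 were 1.34 ± 0.0478 in vehicle, 1.04 ± 0.109 at 0.1 nM and 1.31 ± 0.146 at 10 nM (SD, n = 3), with an exact permutation p = 0.8 for 10 nM against vehicle.

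**Figure D2:**
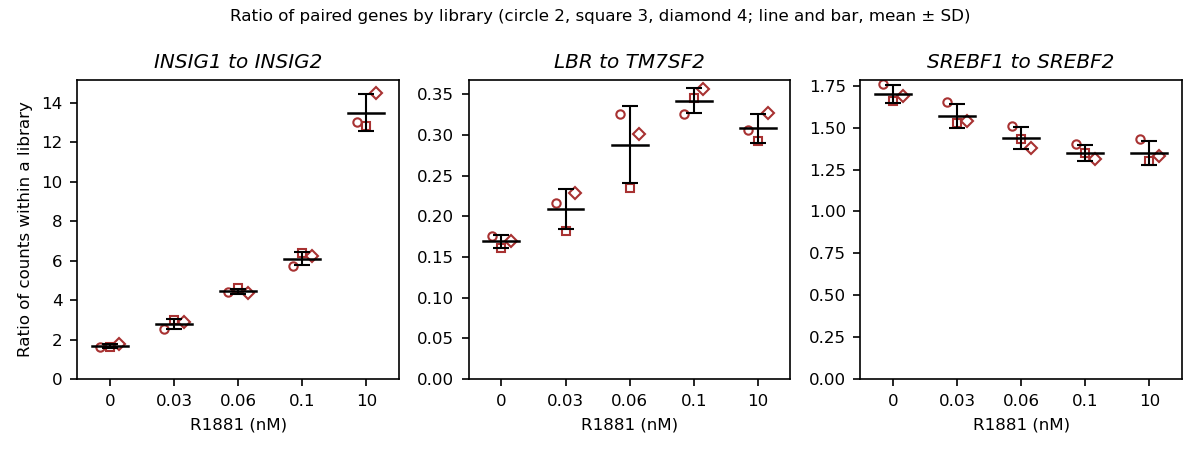
Ratio of the counts of paired genes within each library (vertical axis, from 0) by R1881 dose in nM (horizontal axis, 0 for vehicle), with 1 marker per library (circle 2, square 3, diamond 4) and a line and bar for the mean ± SD of 3 libraries. INSIG1 to INSIG2 climbs at every dose from 1.67 to 13.5, LBR to TM7SF2 is highest at 0.1 nM, and SREBF1 to SREBF2 goes from 1.70 to 1.35.

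The proteases that release the SREBPs differed from each other. MBTPS2, the site-2 protease, went from 73.2, 66.3 and 75.0 CPM in vehicle to 83.0, 87.6 and 85.9 CPM at 0.1 nM and 121, 113 and 109 CPM at 10 nM, a log2 change of 0.68 ± 0.056 (adjusted p = 1.05e-08). MBTPS1, the site-1 protease, went from 92.8, 94.0 and 96.6 CPM in vehicle to 115, 107 and 113 CPM at 10 nM. Its log2 change of 0.24 ± 0.044 (adjusted p = 1.23e-04) was 0.04 with library totals (adjusted p = 0.578). The ratio of MBTPS1 to MBTPS2 counts was 1.32 ± 0.0814 in vehicle and 0.981 ± 0.0492 at 10 nM (SD, n = 3), with no overlap between the groups (exact two-sided permutation p = 0.1, the smallest possible).

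STARD4, a carrier that moves cholesterol between membranes (ENSG00000164211.13, chromosome 5, 111496033 to 111512590, minus strand), fell at the low doses and rose at the high one. It was measured at 34, 33.8 and 26.9 CPM in vehicle, 24.0, 21.8 and 21.8 CPM at 0.03 nM, 22, 23.7 and 22 CPM at 0.06 nM, 22.6, 27.4 and 23.3 CPM at 0.1 nM, and 38.0, 52.8 and 40.9 CPM at 10 nM. The libraries at 0.03 and 0.06 nM were all below those of vehicle, 1 library at 0.1 nM overlapped them, and those at 10 nM were all above. The log2 change was -0.49 ± 0.11 at 0.03 nM (adjusted p = 0.0105), -0.49 ± 0.11 at 0.06 nM, -0.37 ± 0.11 at 0.1 nM (adjusted p = 0.0132) and 0.48 ± 0.11 at 10 nM (adjusted p = 0.00112). The direct comparison of 10 nM with 0.06 nM gave 0.96 ± 0.11 (adjusted p = 1.43e-06). The call at 0.1 nM was lost without vehicle replicate 2 (adjusted p = 0.0579), vehicle replicate 3 (0.058), 0.1 nM replicate 2 (0.0643) or 0.1 nM replicate 4 (0.0528).

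**Figure D3:**
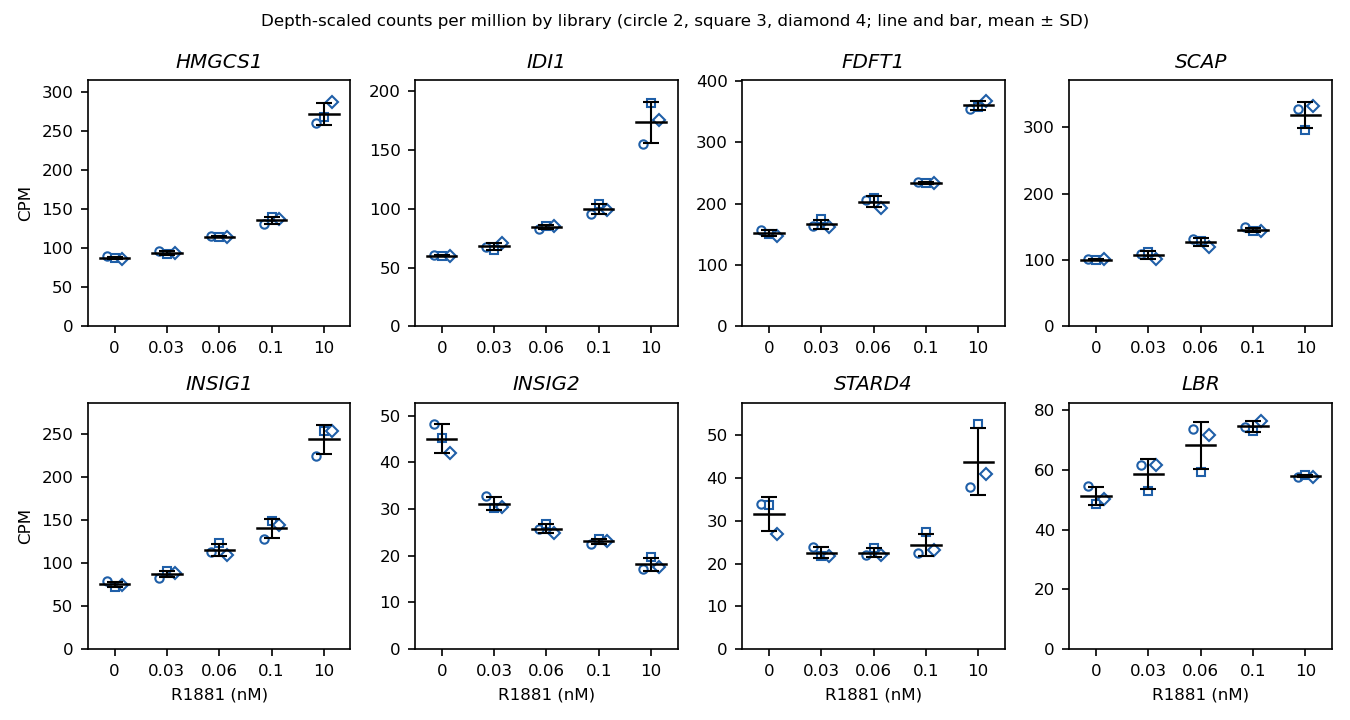
Level in CPM (vertical axes, from 0) of 8 of the 28 genes in each of 15 libraries by R1881 dose in nM (horizontal axis, 0 for vehicle), with 1 marker per library and a line and bar for the mean ± SD of 3 libraries. SCAP steps from at most 149 CPM to at least 296 CPM between 0.1 and 10 nM, INSIG2 drops at 0.03 nM, STARD4 is low at 0.03 to 0.1 nM and highest at 10 nM, and the mean of LBR is highest at 0.1 nM.

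Over the 5 groups in dose order, the group means of 17 of the 28 genes rose at every step, those of TM7SF2, HSD17B7 and INSIG2 fell at every step, and those of MVD, GGPS1, CYP51A1, LBR, MSMO1, SC5D, SREBF1 and STARD4 did neither. The lowest dose at which a gene was called was 0.03 nM for 3 genes, 0.06 nM for 17, 0.1 nM for 4 (MSMO1, SC5D, MBTPS1 and MBTPS2) and 10 nM for 4 (MVD, GGPS1, CYP51A1 and SREBF1). The tally was also made with the replicate block at 0.03 and 0.1 nM, where the numbers were taken to pair the libraries. The lowest dose was then 0.03 nM for 11 genes and 0.06 nM for 9, with the same 4 genes each at 0.1 and 10 nM. That tally mixes fits, because the 0.06 nM fit in it had no block. With the block at 0.06 nM too, MSMO1, SC5D, MBTPS1, MBTPS2 and CYP51A1 were called higher and GGPS1 lower at that dose. Without the block, DESeq2 (adjusted p = 0.0412) and no low-count filter (0.0337) also called CYP51A1 higher at 0.06 nM. So did leaving out vehicle replicate 3 (0.00685) or the 5 libraries numbered 3 (0.00384), which also called it at 0.1 nM (0.0203 and 0.0103). MBTPS2 was called higher at 0.06 nM with RLE size factors (0.0487), DESeq2 (0.043) or without vehicle replicate 4 (0.0387). SC5D was called higher there without the libraries numbered 3 (0.048). The mean was highest at 10 nM in 24 genes. Among all genes tested, 5.47% were called higher and 3.16% lower at 0.03 nM, and 16.9% and 14.3% at 0.06 nM. The shares were 21.5% and 20.6% at 0.1 nM, and 29.3% and 28.3% at 10 nM. Lowest doses called and the order of means were not tallied over all genes, so whether these courses are particular to the 28 genes was not tested.

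The high dose was also compared directly with the low doses. Against 0.06 nM, 22 of the 28 genes were higher and 3 lower, where 22.7% of all genes were called higher and 22.6% lower, with a median log2 change of 0.43 for the 28 genes and -0.027 for all. Against 0.1 nM, 19 were higher and 3 lower, where 20.6% of all genes were called higher and 19.5% lower, with medians of 0.29 and -0.013. The 3 lower genes in both comparisons were TM7SF2, LBR and INSIG2. At least 2-fold higher at 10 than at 0.06 nM were HMGCS1, IDI1, SCAP and INSIG1, and at 10 than at 0.1 nM HMGCS1 and SCAP. PMVK, CYP51A1 and HSD17B7 were called in neither comparison, and DHCR7, EBP and MBTPS1 not against 0.1 nM. With library totals, 17 genes were called higher and 4 lower against 0.06 nM, and 13 higher and 4 lower against 0.1 nM, while the calls over all genes went from 4182 higher and 4159 lower to 2333 and 7043, and from 3787 higher and 3589 lower to 2164 and 5994. The calls of FDPS and ACAT2 against 0.1 nM, at 0.17 ± 0.053 and 0.21 ± 0.064, were lost with library totals (0.01 and 0.06, adjusted p = 0.873 and 0.539), without the 5 libraries numbered 3 (adjusted p = 0.0925 and 0.117), without 0.1 nM replicate 3 (adjusted p = 0.089 and 0.0746) or without 10 nM replicate 2 (0.101 and 0.0801), and that of FDPS also without 0.1 nM replicate 4 (0.0511) or 10 nM replicate 4 (0.119). MBTPS1 was called against 0.06 nM at 0.14 ± 0.044 and stood at -0.04 with library totals.

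Per kilobase of exon, the 28 genes spanned 3.06 ± 0.582 CPM per kb (CYP51A1) to 89.0 ± 1.92 CPM per kb (TM7SF2) in vehicle (SD, n = 3). After TM7SF2 came SREBF1 at 59.5, PMVK at 41.2 and SREBF2 at 37.1 CPM per kb, each separate from the next in all libraries. At 10 nM the order had changed. SREBF1 at 73.5, FDFT1 at 69.3 and INSIG1 at 66.7 CPM per kb led, with SREBF1 overlapping FDFT1 and FDFT1 overlapping INSIG1, and HMGCS1 at 58.0, SREBF2 at 57.7 and TM7SF2 at 55.2 CPM per kb followed, overlapping one another in turn. HSD17B7 was lowest at 2.97 and CYP51A1 next at 4.11 CPM per kb. INSIG2 moved from 11.4 to 4.59 CPM per kb while INSIG1 moved from 20.6 to 66.7 CPM per kb. These levels use the union of annotated exons, and the longest transcript as the length changed both orders. It put FDFT1 first at 10 nM, at 135 CPM per kb, and in vehicle placed FDFT1 at 57.2 CPM per kb behind TM7SF2 at 145 and SREBF1 at 103, ahead of SREBF2 at 49.2, with PMVK 7th at 41.2 CPM per kb.

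The other genes of the pathway were described by 4 lists. For each list, the share over all genes tested at 10 nM was 29.3% called higher and 28.3% called lower. Of 5 other sterol enzymes and electron donors, all 5 rose at 10 nM, with a median log2 change of 0.42 (4 with library totals, median 0.21). The electron donor CYB5A changed by 0.83 ± 0.057 and ERG28, a scaffold of the C4 demethylation enzymes, by 0.42 ± 0.046 (0.21 with library totals). CYB5B, the cytochrome b5 of the outer mitochondrial membrane, changed by 0.41 ± 0.05 (0.2 with library totals).

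Of 14 genes of the isoprenoid branch, 8 rose and 2 fell at 10 nM (57.1% and 14.3%, against 29.3% and 28.3% of all genes), with a median of 0.21. With library totals 1 rose and 4 fell, FNTA turned and the median was 0.0. NUS1, a subunit of the enzyme for dolichol synthesis, rose by 0.53 ± 0.069, and was the gene still called higher with library totals, at 0.32. ICMT, the methyltransferase of prenylated proteins, was at 0.29 ± 0.046, a call lost with library totals (0.08, adjusted p = 0.199). PDSS2, a subunit of the enzyme that makes the side chain of coenzyme Q, was at -0.78 ± 0.085 (35 ± 1.69 CPM in vehicle, 20.3 ± 0.532 CPM at 10 nM). Of 15 partners of the SREBPs, 6 rose and 2 fell (40.0% and 13.3%, against 29.3% and 28.3% of all genes), with a median of 0.05. With library totals 5 rose and 5 fell, RNF139 turned and the median was -0.16. Of the 6 that rose, 4 were the SEC24 genes, subunits of the COPII coat that carries SCAP out of the endoplasmic reticulum. SEC24D was at 34.4, 34.4 and 33.5 CPM in vehicle, 51.1, 51.6 and 52.4 CPM at 0.1 nM, and 153, 131 and 159 CPM at 10 nM, a log2 change of 2.11 ± 0.076 (adjusted p = 1.05e-13). SEC24B and SEC24A changed by 1.05 ± 0.046 and 0.95 ± 0.054. The partners that fell with TMM scaling were ERLIN2 and SPRING1. The 3 NF-Y subunits NFYA, NFYB and NFYC were not called at 10 nM against vehicle. NFYB was called higher at 0.1 nM against vehicle and lower at 10 nM against 0.1 nM. NFYA was called higher at 10 nM against 0.06 nM and against 0.1 nM.

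Of the 14 fatty acid genes tested, 9 rose and 4 fell at 10 nM, with a median of 0.65 (8 and 4 with library totals, where ACSS2 turned), and THRSP was too low to test. The 9 and 4 were 64.3% and 28.6% of the list, against 29.3% and 28.3% of all genes. ELOVL5, a fatty acid elongase, changed by 2.19 ± 0.096, FASN, the fatty acid synthase, by 1.52 ± 0.079 and ACACA, acetyl-CoA carboxylase, by 1.09 ± 0.059. FASN went from 1870 ± 110 to 5370 ± 221 CPM. At 0.03 nM, where 5.47% of all genes were called higher and 3.16% lower, the lists held 1 gene called higher of 5 (CYB5B), 2 of 14 in the isoprenoid branch (PDSS1 and ICMT), 1 of 15 partners (ERLIN1) and 2 of 14 fatty acid genes (ACACA and ELOVL5), and the partners ERLIN2 and SPRING1 were called lower. The replicate block, whose fit called 9.93% of all genes higher, added CYB5A, UBE2G2 and FADS1 as higher.

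**Figure D4:**
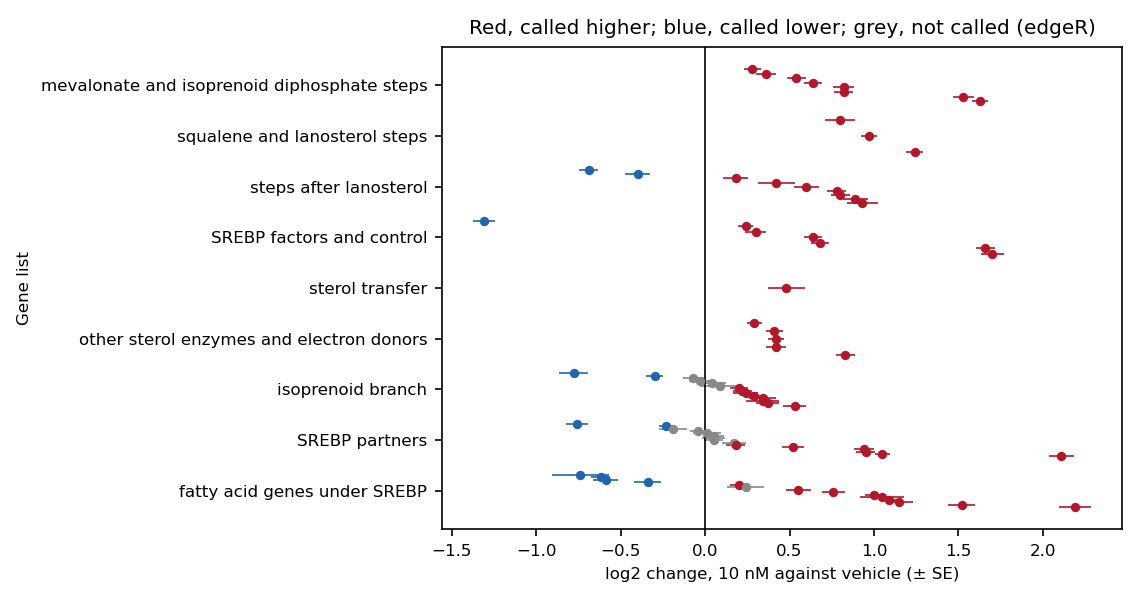
Log2 change of 10 nM against vehicle (horizontal axis, ± SE) for each tested gene of the 5 role groups of the 28 genes and of the 4 other lists (rows), with red for genes called higher, blue for genes called lower and grey for genes not called. The 28 genes run from -1.31 (INSIG2) to 1.70 (INSIG1), and ELOVL5 and SEC24D lie beyond them at 2.19 and 2.11.

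In GENCODE 29, another gene lies over 7 of the 28 genes on the same strand and over 14 on the opposite one, and 3 (FDPS, CYP51A1 and HSD17B7) have named pseudogenes. The counter's strand setting is not given in the sources used here, so reads of such genes may be shared. The antisense genes STARD4-AS1, CYP51A1-AS1 and SREBF2-AS1 were at 0.341, 0.861 and 1.26 CPM at 10 nM. The pseudogene HSD17B7P2 was at 1.72 ± 0.600 CPM in vehicle and 1.86 ± 0.0887 CPM at 10 nM and was not called.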

How the data were processed

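Messenger RNA libraries of LNCaP cells were made with a KAPA Stranded mRNA-Seq kit, per the labels' protocols. Per the submitters' processing notes, Trimmomatic 0.39, STAR 2.7.8a and DESeq2 1.36.0 were used with GRCh38/hg38. The read counter, its strand setting and the annotation release are not given in the sources used here. The authors deposited raw counts, whole numbers for 37843 Ensembl genes in 15 libraries, and 37732 IDs matched a symbol table. The 15 columns of a VCaP table match no label and were not used.

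Groups came from the labels. The 28 genes, the 4 other lists, the marker lists and the motifs were chosen with earlier results of these data known. The 15 libraries were fitted together by edgeR 4.0.16 in R 4.3.3, with a mean for each group. Low counts were removed by filterByExpr, which left 18403 genes, and TMM factors scaled the libraries. The quasi-likelihood test was two-sided in each of 6 comparisons, and calls are Benjamini-Hochberg adjusted p under 0.05. CPM are counts over TMM-scaled library sizes, and levels per kb use GENCODE 29 exon unions. Ratios of counts within a library had an exact permutation test. All 28 genes are reported, with the 3 genes of smallest p at 10 nM from each other list as analysed and, as a check of the response, KLK3, FKBP5 and TMPRSS2. Totals of 30666460 to 61199483 counts per library set the precision. The procedure was tested on simulated data.

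Same-numbered libraries deviated together from their group means, with correlations over genes of 0.155, 0.296 and 0.164 for 0.03 nM against vehicle and 0.179, 0.287 and 0.151 for 0.1 nM against vehicle, so there the numbers were taken to pair the libraries. In the other 4 comparisons at least 1 correlation was below 0.1, but all were positive, and those of the libraries numbered 3 were 0.19 to 0.315. On principal component 3 of the log2 CPM, the libraries numbered 3 lay at -22.5 to -15.7 in all 5 groups. The other libraries lay at 4.17 to 13.3. The libraries numbered 3 thus shared a difference from the others in every comparison. Whether the numbers 2 and 4 also pair libraries in those 4 comparisons was left unsettled. The reported calls come from the fit without the block, which ignores an effect shared by number. No pair of libraries agreed within sampling noise. Alternatives were RLE size factors, library totals, DESeq2 1.42.0, keeping all low counts, a stricter filter (mean count of 20 or more and 1 CPM or more in 3 libraries), a block for the replicate number, fitting only the libraries compared, leaving out each library, leaving out the 5 libraries numbered 3, and the longest transcript as the length. KRT5, COL1A2 and a few genes first placed in the other lists were not analysed here.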

Additional observations from a re-analysis of the deposited data

How the results depend on the processing

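In each of the 6 comparisons except 0.03 nM against vehicle, the numbers of the 28 genes called higher and called lower stayed within 1.5 times the reported count under all alternatives run. At 0.03 nM the count called higher, reported as 1, was 0 with library totals and with only the libraries compared, 2 without a low-count filter and without the 5 libraries numbered 3, 3 with DESeq2, 9 with the replicate block, and 0 to 4 when single libraries were left out (4 without vehicle replicate 2, and 0 without vehicle replicate 3, vehicle replicate 4 or 0.03 nM replicate 4). At 0.1 nM, where the numbers were also taken to pair the libraries, the replicate block changed no call. In the other 4 comparisons, where pairing by the numbers 2 and 4 was left unsettled, the block ended no call. It added MBTPS1, MBTPS2, MSMO1, SC5D and CYP51A1 (higher) and GGPS1 (lower) at 0.06 nM, and CYP51A1 and EBP for 10 nM against 0.1 nM.

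Of the 122 calls of single genes, library totals ended 18 and reversed 2, and leaving out single libraries ended a call in 33 cases and reversed none. Besides those given with the results, single libraries ended the calls of HSD17B7 at 0.06 nM (0.06 nM replicate 4), PMVK at 0.06 nM (vehicle replicate 4), MBTPS1 at 0.1 nM (vehicle replicate 2, 0.1 nM replicate 2) and against 0.06 nM (0.06 nM replicate 4, 10 nM replicates 2 and 4), DHCR7 against 0.06 nM (0.06 nM replicate 4, 10 nM replicates 3 and 4), LBR against 0.06 nM (0.06 nM replicates 2 and 4) and LSS against 0.1 nM (0.1 nM replicate 4, 10 nM replicate 3).

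Directions turned with library totals for LBR at 10 nM (-0.03), for SREBF1 at 0.1 nM (-0.0032), for PMVK, CYP51A1 and MBTPS1 in 10 nM against 0.06 nM (-0.08, -0.04 and -0.04) and for PMVK, DHCR7 and MBTPS1 in 10 nM against 0.1 nM (-0.07, -0.03 and -0.05). The others were uncalled values near 0: GGPS1 at 0.1 nM (0.02 without 0.1 nM replicate 2), and at 0.03 nM MSMO1 (0.01 without the libraries numbered 3, 0.0037 without vehicle replicate 2, 0.02 without 0.03 nM replicate 3), NSDHL (-0.0044 without vehicle replicate 4, up to 0.07 without other single libraries), SC5D (0.01 without the libraries numbered 3, 0.02 without vehicle replicate 3, 0.01 without 0.03 nM replicate 2), SREBF1 (0.04 without vehicle replicate 2, 0.06 without 0.03 nM replicate 4) and MBTPS2 (-0.02 without the libraries numbered 3, -0.05 without vehicle replicate 3, -0.03 without 0.03 nM replicate 2, up to 0.05 without vehicle replicate 4). The cause was not tested.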

Other observations

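MMAB, the neighbour that starts head to head with MVK on the opposite strand and encodes an enzyme of cobalamin metabolism, was at 63.1 ± 5.10 CPM in vehicle, 71.6 ± 2.55 CPM at 0.03 nM, 80.6 ± 5.81 CPM at 0.06 nM, 87.1 ± 0.951 CPM at 0.1 nM and 88.6 ± 2.04 CPM at 10 nM (SD, n = 3). Its log2 change at 10 nM was 0.49 ± 0.060 (edgeR adjusted p = 1.63e-06), where MVK was at 0.82 ± 0.057. YY2, which lies within MBTPS2 on the same strand, went from 1.59 ± 0.290 to 2.78 ± 0.534 CPM, a log2 change of 0.82 ± 0.17 (edgeR adjusted p = 5.80e-04), where MBTPS2 was at 0.68 ± 0.056. TCP1, which overlaps ACAT2 on the opposite strand and encodes a chaperonin subunit, went from 403 ± 40.2 to 493 ± 8.37 CPM, a log2 change of 0.29 ± 0.066. RAI1, on the opposite strand at SREBF1, was at -0.14 ± 0.052 (edgeR adjusted p = 0.0271). ARID4B, on the opposite strand at GGPS1, was not called (0.14 ± 0.069).

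Some listed genes outside the 28 had their highest mean below 10 nM. ICMT, which methylates prenylated proteins, was at 134 ± 3.17 CPM in vehicle, 203 ± 7.51 CPM at 0.1 nM and 164 ± 2.13 CPM at 10 nM. PDSS1, a partner of PDSS2, was at 10.2 ± 0.532, 18.4 ± 0.949 and 13.2 ± 0.580 CPM in the same groups. ELOVL6 was at 44.5 ± 0.926 CPM in vehicle, 52.7 ± 3.30 CPM at 0.06 nM and 29 ± 1.96 CPM at 10 nM. SPRING1, needed for the site-1 protease to work, was at 69.9 ± 1.81 CPM in vehicle, 55.2 ± 5.07 CPM at 0.03 nM and 41.3 ± 0.719 CPM at 10 nM. These genes were picked from the lists after their values were seen.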
